A study of Mus musculus with 2 samples.

Results

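This account covers 6 miRNA genes of microglia and other immune cells, Mir142, Mir223, Mir155, Mir146 (the gene of miR-146a), Mir146b and Mir150. They were taken by name from the 2202 miRNA genes annotated in GENCODE M21, by a rule that uses no measured value, although earlier results of these data were known when the genes were chosen. Small RNA of the hippocampus was sequenced from male B6CASTF1/J mice, the F1 cross of C57BL/6J and CAST/EiJ, at 14 days of age. There was 1 group with 2 biological replicates and no treatment, and the label of each library numbers 3 males. The males numbered differ between the labels, yet both libraries bear the same donor identifier. The labels do not settle whether the libraries are separate pools of animals. What separates them may be technical variation alone, and p-values speak only of these samples. The labels name the tissue as layer of hippocampus and mention no sorting of cells. In such bulk tissue, fewer cells of a type and less RNA per cell cannot be told apart.

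A miRNA gene is transcribed as a longer RNA from which a hairpin is cut. The hairpin is trimmed to a duplex, and an arm of it is loaded into an Argonaute protein, where bases 2 to 8, the seed, pair with target mRNAs. miR-142 is made in nearly all blood-derived cells, microglia included, and is widely used as a mark of haematopoietic cells. miR-223 is a myeloid miRNA, best known for restraining neutrophils. miR-155 and miR-146a are induced through NF-kB when Toll-like receptors are engaged. miR-155 promotes inflammatory responses by lowering inhibitors such as Socs1, whereas miR-146a dampens signalling by targeting the adaptors Traf6 and Irak1. miR-146b, made from another gene, shares the seed of miR-146a. miR-150 is abundant in mature lymphocytes, where it targets the transcription factor Myb.

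The mature sequences show how far reads of these genes could be told apart, and are printed 5′ to 3′ with the seed in capitals. The RefSeq table for GRCm38.p6 held 11 mature sequences for the 6 genes, with miR-150-3p for Mir150. It held no entry for the arm miR-150-5p, so Mir150 was compared by the seed of miR-150-3p alone.
miR-146a-5p: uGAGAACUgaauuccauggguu
miR-146b-5p: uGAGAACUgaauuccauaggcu
miR-142a-5p: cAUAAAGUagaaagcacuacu
miR-142a-3p: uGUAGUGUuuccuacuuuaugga
miR-142b: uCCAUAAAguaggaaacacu
miR-155-5p: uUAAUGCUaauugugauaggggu
miR-223-3p: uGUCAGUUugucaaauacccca
miR-150-3p: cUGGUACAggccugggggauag

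The 11 mature sequences carried 10 distinct seeds. The seed GAGAACU was shared by miR-146a-5p and miR-146b-5p, and none of the other seeds of these 11 recurred among the 1738 mature miRNAs of the table. Counted from the 5′ end of miR-146a-5p, the pair differed by G18A and U21C, so that their first 17 bases were identical. The hairpins of Mir146 and Mir146b shared a run of 21 nucleotides, gctctgagaactgaattccat. Reads that fit several places were given to no gene, and the counts of these 2 genes are therefore uncertain. No other gene of the 6 shared 20 nucleotides with a miRNA gene elsewhere in the genome.

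miR-142b is annotated on the opposite strand of the Mir142 locus, and its 20 bases are the reverse complement of part of miR-142a-3p. The Mir142 hairpin shows both of its arms, here in capitals, which the counts do not separate.
Mir142 hairpin: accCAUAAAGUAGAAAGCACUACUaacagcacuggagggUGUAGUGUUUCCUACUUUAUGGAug

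The genes lie at separate loci in mm10. Mir142 (ENSMUSG00000105196.1, chr11:87756864-87756927, plus strand) sits in an intron of the long non-coding RNA gene Mir142hg, 3.61 kb from Tspoap1. Mir223 (ENSMUSG00000076066.1, chrX:96242817-96242926, plus strand) is exonic in the non-coding gene F630028O10Rik, 4.28 kb from Vsig4, a complement receptor gene of macrophages. Mir155 (ENSMUSG00000065397.1, chr16:84714140-84714204, plus strand) is exonic in Mir155hg. Mir146b (ENSMUSG00000070127.2, chr19:46342762-46342870, plus strand) lies in an intron of the protein-coding gene Mfsd13a. Mir146 (ENSMUSG00000065601.1, chr11:43374397-43374461, minus strand) and Mir150 (ENSMUSG00000065495.1, chr7:45121757-45121821, plus strand) overlap no annotated gene on their strand.

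Replicate 1 had 3793934 counts on miRNA genes and replicate 2 had 2554997. These were 27.5% and 35.3% of the reads listed, with 41.3% and 20.7% unmapped. Levels are counts on the strand of the gene per 1000000 such counts (CPM), so a count was worth 0.264 CPM in replicate 1 and 0.391 CPM in replicate 2. Intervals are 95% Wilson intervals and cover counting error only, because amplified reads are not independent molecules. Detection meant reaching 2 CPM in both libraries, as 426 of the 2202 genes did. Of 13 neuronal miRNA genes used to check the tissue, 10 were detected, and the Mir124a copies, whose mature sequence is the same, had 0 to 12 counts each.

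All 6 genes were detected, and together they held 0.180% of counts in replicate 1 and 0.170% in replicate 2, or 0.175% ± 0.00706 (SD, n = 2). Mir150 and Mir146 made up 93.2% of this sum in replicate 1 and 93.4% in replicate 2. The remaining 4 genes, among them Mir142, which marks blood-derived cells, and the myeloid Mir223, lay at 50.2 CPM or less on average. The median of all detected genes was 88.3 CPM, and of the 6 genes Mir150 and Mir146 were above it. From the highest to the lowest member, Mir150 to Mir223, the mean level spanned 179-fold, at 120-fold in replicate 1 and 334-fold in replicate 2.

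**Figure D1:**
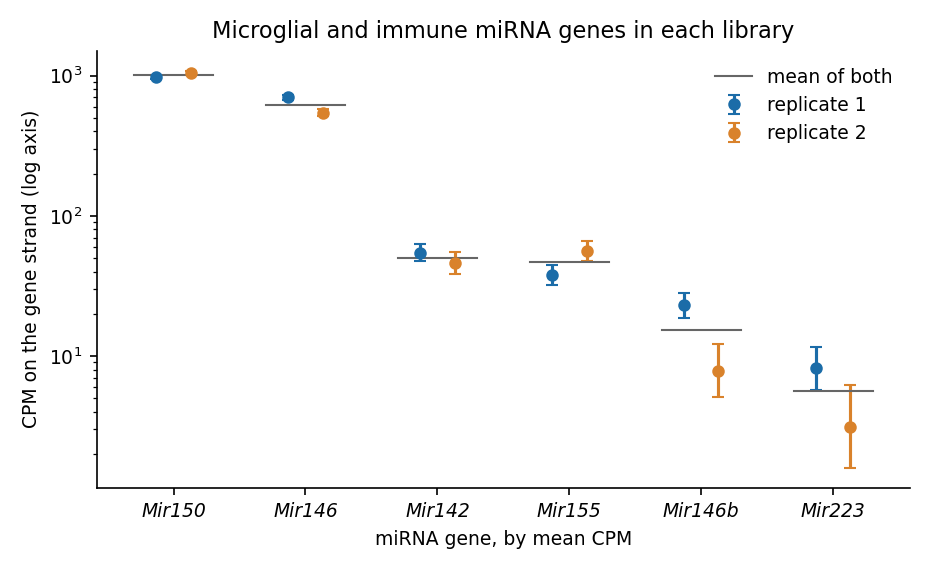
CPM on a log axis for the 6 genes, ordered by mean, with replicate 1 left of replicate 2, 95% Wilson intervals as bars and the mean as a line. Mir150 at 1014 CPM and Mir146 at 622 CPM stand above the other genes, all at 50.2 CPM or less, and the libraries are farthest apart for Mir146b and Mir223.

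Mir150, whose miRNA is abundant in mature lymphocytes, was the highest of the 6. It had 3722 counts in replicate 1 and 2674 counts in replicate 2, which is 981 CPM (950.04 to 1013) and 1047 CPM (1008 to 1087). The mean was 1014 ± 46.3 CPM (SD, n = 2), rank 111 of all genes, and the coefficient of variation of 4.57% was the smallest of the 6. Genes of like level, directly above and below it by mean, were Mir467d at 1021 ± 235 CPM and Mir322 at 966 ± 215 CPM. Mir150 exceeded Mir142, the mark of blood-derived cells, 17.98-fold in replicate 1 and 22.85-fold in replicate 2. Which cells the counts of Mir150 came from was not tested.

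Mir146, which makes the NF-kB brake miR-146a, came next. Its 2654 counts in replicate 1 and 1392 counts in replicate 2 gave 699.5 CPM (673 to 727) and 545 CPM (517 to 574). The mean of 622 ± 109 CPM (SD, n = 2) stood at rank 131, between Mir204 at 662 ± 114 CPM and Mir15b at 569 ± 115 CPM. Its lower library was still 9.73-fold above the highest value of Mir155 and of Mir142.

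Mir146b, the paralogue with the same seed, was far lower. It had 87 counts in replicate 1 and 20 in replicate 2, at 22.9 CPM (18.6 to 28.3) and 7.83 CPM (5.07 to 12.1), with a mean of 15.4 ± 10.7 CPM (SD, n = 2) and rank 301. The level of Mir146 was 30.5 times that of Mir146b in replicate 1 and 69.6 times in replicate 2. Both ratios go the same way, but their sizes differ, and reads that fit both genes are in neither count. Mir582 at 16.2 ± 5.77 CPM and Mir3097 at 15.3 ± 3.32 CPM were its neighbours in level.

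Mir142 and Mir155 were at similar levels. Mir142 had 207 counts in replicate 1 and 117 in replicate 2, or 54.6 CPM (47.6 to 62.5) and 45.8 CPM (38.2 to 54.9), with a mean of 50.2 ± 6.2 CPM (SD, n = 2) at rank 240. Mir155, the inducible inflammatory miRNA gene, had 143 counts in each library, which is 37.7 CPM (32.0 to 44.4) in replicate 1 and 55.97 CPM (47.5 to 65.9) in replicate 2. Its mean was 46.8 ± 12.9 CPM (SD, n = 2) at rank 244. Mir142 was 1.45-fold above Mir155 in replicate 1, without overlap of the intervals, whereas Mir155 was 1.22-fold above Mir142 in replicate 2, with overlap. Levels around theirs were those of Mir504 at 53.1 ± 12.9 CPM and Mir448 at 48.7 ± 1.41 CPM for Mir142, and of Mir494 at 47.4 ± 4.97 CPM and Mir7044 at 46.1 ± 11.5 CPM for Mir155.

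The count columns carry no header, and the one with the larger total was taken as the strand of the genes. In that column all reads at the Mir142 locus were on the strand of Mir142, and in its opposite they were on that of Mir142b. As read here, Mir142b, on the other strand, had 0 counts in both libraries, which by counting error allows up to 0.791 CPM in replicate 1 and 1.17 CPM in replicate 2, from 3 counts. In the column that ignores strand, Mir142 and Mir142b were both at 0. Reads that overlap both genes may have been given to neither, but the counting rule is not given in sources used here. None of the 6 genes had a count on the opposite strand.

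Mir223, the myeloid miRNA gene, was the lowest. It had 31 counts in replicate 1 and 8 counts in replicate 2, at 8.17 CPM (5.76 to 11.6) and 3.13 CPM (1.59 to 6.18). The mean was 5.65 ± 3.56 CPM (SD, n = 2) at rank 362, beside Mir1251 at 5.70 ± 2.46 CPM and Mir5617 at 5.50 ± 1.07 CPM. Mir142 exceeded it 6.68-fold in replicate 1 and 14.6-fold in replicate 2.

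**Figure D2:**
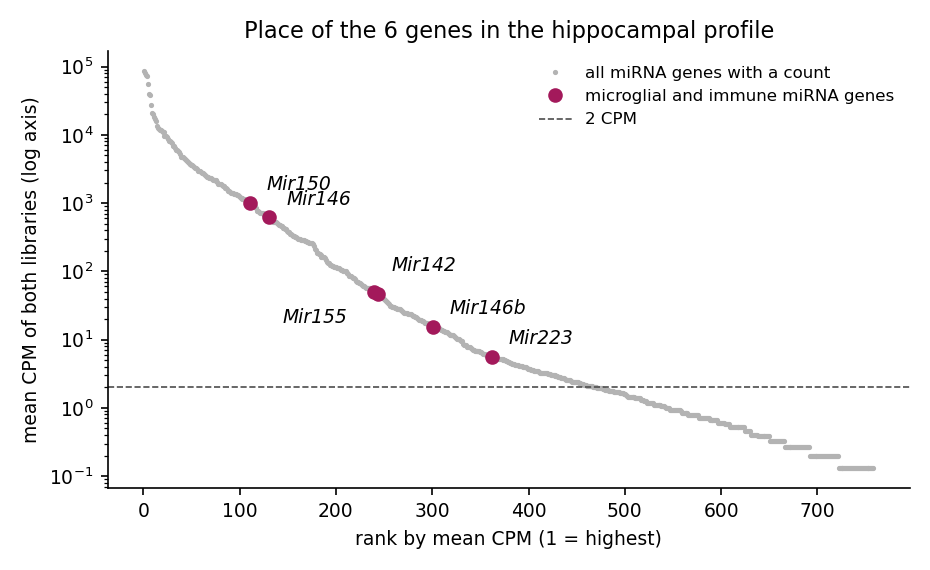
Mean CPM of both libraries on a log axis against rank for the 758 miRNA genes with a count (grey), with the 6 genes marked and a dashed line at 2 CPM. Mir150 and Mir146 lie at ranks 111 and 131, Mir142 and Mir155 at 240 and 244, Mir146b at 301 and Mir223 at 362.

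The order by mean was Mir150, Mir146, Mir142, Mir155, Mir146b and Mir223. Neighbours were compared by whether the ranges of the libraries overlap, because 2 values against 2 cannot give a two-sided exact permutation p below 0.333. Mir150 and Mir146, Mir146 and Mir142, and Mir155 and Mir146b did not overlap, while Mir142 and Mir155, and likewise Mir146b and Mir223, did. Within a library, Mir146b was above Mir223 in both, by 2.81-fold in replicate 1 and by 2.5-fold in replicate 2, where the intervals overlapped. By role, the inducible genes Mir155, Mir146 and Mir146b summed to 760 CPM in replicate 1 and 609 CPM in replicate 2, of which Mir146 gave 699.5 and 545 CPM. The blood-lineage genes Mir142 and Mir223 summed to 62.7 and 48.9 CPM, which was 3.48% and 2.87% of the counts of the 6.

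The libraries were compared gene by gene by a two-sided exact binomial test that takes their totals as given. The p-values were adjusted by Benjamini-Hochberg over the 507 genes whose libraries summed to 10 counts or more. This test compares these libraries by counting error only and not conditions. Of the 6 genes, 5 differed at an adjusted p under 0.05, against 52.1% of all tested genes. Of these, 3 were higher in replicate 1 and 2 in replicate 2, where the shares over all tested genes were 25.2% and 26.8%.

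Mir146b and Mir223, the least abundant of the 6, were the farthest apart. Mir146b was 2.93-fold higher in replicate 1 (exact 95% interval 1.79 to 5.03, adjusted p = 7.51e-06 by the exact binomial test). Mir223 was 2.61-fold higher there (1.17 to 6.57, adjusted p = 0.0279 by the same exact test), from 31 and 8 counts. The ratio of Mir146 was 1.28 (1.20 to 1.37, exact adjusted p = 8.38e-14). Mir155 was lower in replicate 1, with a ratio of 0.673 to replicate 2 (0.530 to 0.855, exact adjusted p = 0.00216). Mir150 differed by little, with a ratio of 0.937 (0.892 to 0.985, exact adjusted p = 0.0234), and Mir142 did not pass, with a ratio of 1.19 (0.945 to 1.51, exact adjusted p = 0.219).

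The common dispersion of edgeR gave a coefficient of variation between replicates of 0.377 over all tested genes. It was estimated from the same 2 libraries that were then compared, so a gap of typical size could not pass. In a negative binomial exact test with that dispersion, 0 of the 6 genes had an adjusted p under 0.05 and 0 an unadjusted p under 0.05, against 0.394% of all tested genes (2 genes) and 23 genes. The lowest unadjusted p of the 6 in that exact test was 0.0844, for Mir146b. The median absolute log2 ratio was 0.47 for the 6 genes and 0.49 for all tested genes. Among the 252 tested genes whose mean lay between those of Mir223 and Mir150 it was 0.46.

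**Figure D3:**
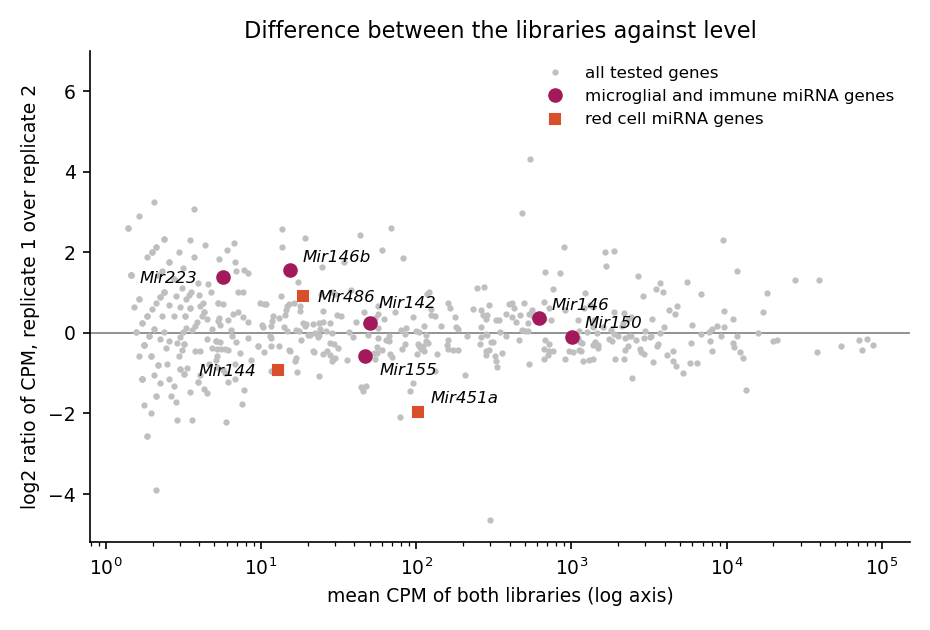
Log2 ratio of CPM, replicate 1 over replicate 2, against mean CPM on a log axis, for 507 tested miRNA genes (grey), the 6 genes (circles) and 3 red cell miRNA genes (squares). The 6 genes run from -0.57 for Mir155 to 1.55 for Mir146b. The red cell genes lie at -1.95 for Mir451a, -0.91 for Mir144 and 0.92 for Mir486.

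Blood cells also make several of these miRNAs, and red cell genes are therefore set beside them. Mir451a, the erythroid miRNA cut by Argonaute2 in place of Dicer, was at 41.9 CPM in replicate 1 and 162 CPM in replicate 2. Mir144, from the same locus, was at 8.96 and 16.8 CPM, and Mir486 at 24.5 and 12.9 CPM. Their sum was 75.4 CPM in replicate 1 and 192 CPM in replicate 2. Mir150 was 23.4 times Mir451a in replicate 1 and 6.44 times in replicate 2, and Mir223 was 0.195 and 0.0193 times Mir451a. Mir451a and Mir144 were lower in replicate 1, with ratios of 0.258 and 0.532 to replicate 2 (exact binomial adjusted p = 1.61e-53 and 0.0152). Mir486 went the other way, with a ratio of 1.90 (adjusted p = 0.00324 by the same exact test). It had 93 and 33 counts, with 5 and 10 on the opposite strand. In the column that ignores strand, Mir486 and Mir451a were both at 0 counts, so their levels depend on the column used. Of the 6 genes, Mir155 and Mir150 were lower in replicate 1, at 0.673 and 0.937. Mir223, Mir146 and Mir146b were higher there, at 2.61, 1.28 and 2.93, and so was Mir142, at 1.19, which did not pass. How much of the level of the 6 genes came from blood was not tested.

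Lists of other cell types are set beside the 6 genes by their summed shares, whose members did not all go the same way. Multimapping reads, 26.3% of the reads listed in replicate 1 and 37.5% in replicate 2, were given to no gene. Shares of lists that hold genes with the same mature sequence, such as the Mir124a copies, may therefore be understated, and unequally between lists and libraries. The oligodendrocyte list (Mir219a-1, Mir219a-2, Mir338) held 0.406% of counts in replicate 1 and 0.125% in replicate 2, with log2 ratios of 2.02 for Mir219a-2 and 1.08 for Mir338, but -0.19 for Mir219a-1. The vessel wall list (Mir126a, Mir143, Mir145a) held 1.43% and 1.11%, with a log2 ratio of 0.53 for Mir126a, the most abundant, and -0.12 for Mir143. The neuronal list held 6.18% and 4.76%. Of its 13 genes, 11 had enough counts for the exact binomial test. In it 4 were higher in replicate 1 and 4 in replicate 2, against 25.2% and 26.8% of all tested genes. Log2 ratios were 1.54 for Mir132 and 0.51 for Mir149, against -0.74 for Mir128-1, -0.65 for Mir128-2 and -0.56 for Mir137. The share of the 6 immune genes lay closer together between the libraries than those of these lists, at 0.180% and 0.170%, although 5 of the 6 differed singly in the exact binomial test. Mir150 alone made up 54.4% of it in replicate 1 and 61.4% in replicate 2.

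**Figure D4:**
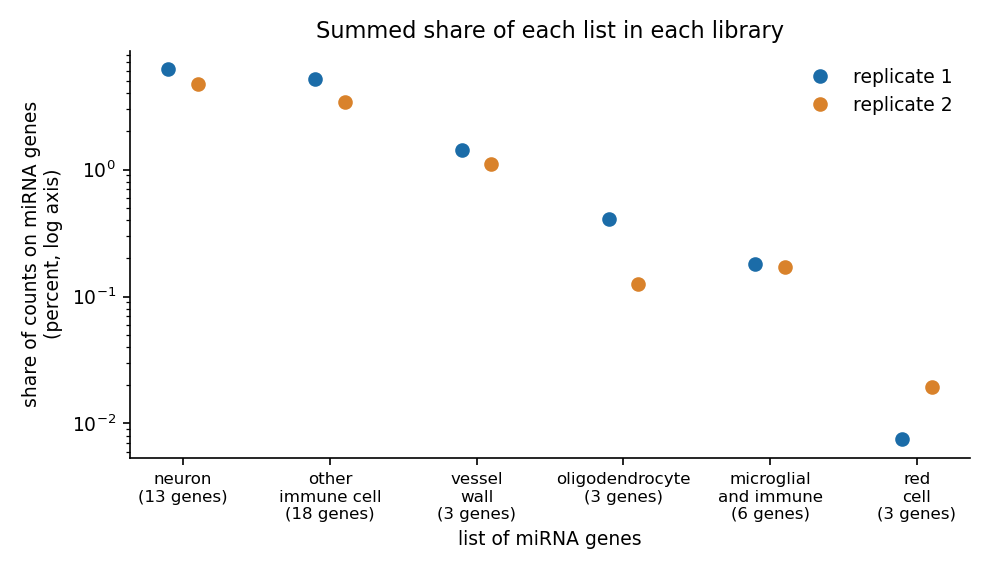
Percent of counts on miRNA genes, on a log axis, held by each list, with replicate 1 left of replicate 2. Multimapping reads are left out. The microglial and immune genes hold 0.180% and 0.170%, below the oligodendrocyte list in replicate 1 (0.406%) and above it in replicate 2 (0.125%), and above the red cell list in both (0.00754% and 0.0192%).

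A further list held 18 other miRNA genes known from immune cells, most of which other cells also make. It held 5.21% of counts in replicate 1 and 3.43% in replicate 2, on average 24.6 times the share of the 6 genes. As above, multimapping reads are left out of these shares. Mir132, which is also in the neuronal list, gave 1.73% of counts in replicate 1 and 0.595% in replicate 2. Of the 18, 16 were detected. In the exact binomial test 14 of the 17 with enough counts differed, replicate 1 being the higher for 8 and replicate 2 for 6, against 52.1% of all tested genes, with 25.2% and 26.8% by direction. In the negative binomial exact test 0 of these 17 had an adjusted p under 0.05 and 2 an unadjusted p under 0.05. Over all 507 tested genes these numbers were 2 and 23. The highest were Mir132, which neuronal activity induces, at 11607 ± 8004 CPM, Mir342 in the host gene Evl at 8017 ± 407 CPM and Mir187 at 6798 ± 3092 CPM (SD, n = 2). Mir21a, Mir221, Mir222, Mir322, Mir23a, Mir27a, Mir24-2, Mir181a-1, Mir181b-1, Mir181a-2, Mir181b-2, Mir29a and Mir29b-1 lay between 24.8 and 4750 CPM. Mir21a, a stress-induced miRNA gene, was at 1451 CPM in replicate 1 and 333 CPM in replicate 2, and Mir222 at 2621 and 649 CPM.

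Mir511 and Mir147, singled out after their values were seen, were the 2 genes of that list that were not detected. Mir511, which lies in the mannose receptor gene Mrc1, had 7 counts in replicate 1 and 0 in replicate 2. Mir147, which Toll-like receptor signalling induces in macrophages, had 11 and 4 counts. Both were below Mir223.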

How the data were processed

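Per the text deposited with the tables, the authors quantified microRNAs on mm10 with GENCODE M21. The deposited values are whole numbers with unequal totals and were taken as raw read counts for each miRNA gene. Which aligner and counter made them, and how reads were trimmed or filtered, is not given in sources used here. The count columns have no header and were read as unstranded, sense and antisense. The sense column was used, and was told from the antisense one by its larger total; counts of Mir142 and Mir142b trade places between these columns. The reads that went to no gene (unmapped, multimapping and outside miRNA genes) stayed out of totals and tests, and were 72.5% of replicate 1 and 64.7% of replicate 2.

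From these counts, CPM were computed over all miRNA genes. Ratios are of CPM, replicate 1 over replicate 2, with no pseudocount. With 1 group of 2 libraries, edgeR's quasi-likelihood test has no contrast, so genes were compared by a two-sided exact binomial test with Benjamini-Hochberg adjustment over genes with a summed count of 10 or more. The test was tried on simulated counts that had counting error only. They lack the further spread between these libraries, so the trial cannot show how the test behaves on them. The spread between replicates was edgeR's common dispersion (intercept-only design, TMM factors). Mature and hairpin sequences came from RefSeq (GRCm38.p6), positions and shared stretches of 20 nucleotides from GENCODE M21. Alternatives were other scalings (TMM totals, DESeq2 size factors), denominators, count and detection minimums, stretch lengths, the column that ignores strand and each library alone.

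The members and lists were chosen with earlier results of these data known. The text names the 6 genes, the genes directly above and below each by mean CPM, and genes that overlap or share a stretch with them. It also takes up members of the other lists whose average reached 10 CPM. The neuronal genes Mir330, Mir138-1, Mir138-2, Mir129-1 and Mir129-2 reached that level too and are named only here. Mir511 and Mir147, below 10 CPM, were named after their values were seen. Tools were R 4.3.3 with edgeR 4.0.16 and DESeq2 1.42.0, and Python 3.11.15 with matplotlib 3.10.9, scipy 1.17.1, pandas 2.3.3 and numpy 2.4.6.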

Additional observations from a re-analysis of the deposited data

How the results depend on the processing

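The 6 genes held 0.170% to 0.180% of counts in either library alone, 0.181% in the column that ignores strand and 0.0549% of all reads listed, a denominator that takes in unmapped and multimapping reads. Mir142 was at 0 in the column that ignores strand. Without replicate 1, Mir146b was at 7.83 and Mir223 at 3.13 CPM, against means of 15.4 and 5.65 CPM, so those means rest on replicate 1. All 6 were detected at minimums of 0.5, 1 and 2 CPM, 5 at 5 CPM and 4 at 10 CPM. Mir146 and Mir146b shared a stretch of 16, 18 or 20 nucleotides with each other, and no member shared one of 22.

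By the exact binomial test, 5 of the 6 genes differed under TMM-scaled totals, DESeq2 size factors and totals without the 10 highest genes. Of all 507 tested genes, 263, 268 and 272 differed, in that order. With no minimum on the summed count, 5 of the 6 differed and 251 of 758 tested genes. With a minimum of 30, 5 of the 6 differed and 254 of 381. Per read listed, an alternative chosen after seeing the data, 3 of the 6 differed, against 278 of 507 tested genes. Mir223 and Mir146 were lost (log2 ratios 1.02 and 0.00), and Mir142, which did not pass in either, changed sign from 0.25 to -0.11. With edgeR's common dispersion, 0 of the 6 and 2 of all 507 tested genes passed, and 0 and 23 had an unadjusted p under 0.05. The cause of these losses was not tested beyond the denominator and the spread that define them. No test could be made without replicate 1 or 2, since 1 library remains. With 8 to 31 counts, Mir223 and the lower library of Mir146b were limited by depth. No paired analysis was possible because there is 1 group.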
